A study of Glycine max with 12 samples.

Results

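The lipid-transfer and 2S albumin-like proteins of soybean (Glycine max) were taken as every gene model whose deposited annotation carried Pfam domain PF00234 or PF14368 or whose closest Arabidopsis protein was described as a bifunctional inhibitor/lipid-transfer protein/seed storage 2S albumin. This rule found 188 of 56044 models. PF00234 was present in 119 of them and PF14368 in 0, 69 entered by the description alone, and 98 met both criteria. The models were grouped by their closest Arabidopsis locus into 55 glycosylphosphatidylinositol-anchored lipid transfer proteins (LTPG), 42 hybrid proline-rich proteins, 40 proteins related to DIR1, 35 type 1 lipid transfer proteins, 8 type 2 lipid transfer proteins, 2 related to the anther protein A9 and 6 others. None had an Arabidopsis 2S albumin as its closest match, so the annotation holds no 2S albumin under that name. Of the members, 2 carried PF00234 and had no Arabidopsis match, and these are given by their identifiers only.

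Plant lipid transfer proteins are small, secreted, cysteine-rich proteins whose helices are held by disulphide bridges around a hydrophobic tunnel that takes up a fatty acid or phospholipid. They are known for binding lipids in the cell wall and at the surface, where cutin, wax and suberin are laid down, and several act in defence: DIR1 of Arabidopsis is needed for systemic acquired resistance, and the anchored LTPG1 takes part in the export of wax to the Arabidopsis stem surface. Hybrid proline-rich proteins join the same cysteine-rich domain to a proline-rich stretch and sit in the cell wall. The 2S albumins, which share the fold, are nitrogen and sulphur stores of the seed.

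RNA was sequenced from 12 soybean tissues with 1 library each. Of these, 1 came from W55 (Williams 55), a line with the i mutation, a spontaneous deletion in the chalcone synthase region, and a black seed coat, and 11 came from the cultivar Williams, which carries the ii allele and has a yellow seed coat with a black hilum. W55 is 1 line, so what is particular to that line and what belongs to the deletion cannot be told apart. The groups were the seed coat of 5–6 mg seed, the seed coat of 25–50 mg seed of W55 and of Williams, the yellow desiccating seed coat of 200–300 mg seed, the seed coat of mature dry seed, the embryo axis of desiccating 200–300 mg and 300–400 mg seed, the cotyledon of 5–6 mg seed, the cotyledon without axis of desiccating 200–300 mg seed, the cotyledon of mature dry seed, the seedling root at 5 days and the furled trifoliate leaf of the adult plant.

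Values are RPKM, reads per kilobase of model and per 1e6 alignments in the library. The denominators, recovered from the values, ran from 14.7 M alignments in leaf to 187 M in root, with 23.9 M for the W55 seed coat and 19.9 M for the matching Williams seed coat. The number of models at 1 RPKM or more ran from 17600 (dry seed coat) to 31507 (root). A set of 95 unannotated models on chromosome 13 took 75.7% of the RPKM of the youngest seed coat, 53.9% of the young cotyledon's and 47.6% of the dry seed coat's, but 2.64 to 20.6% elsewhere. As RPKM is relative, other values are lower for it in those 3 libraries. Differences were therefore taken on the log2(RPKM + 0.1) scale and centred on the median of all models compared, and a model was called higher or lower when it was past 4-fold (2 log2 units) and had at least 1 RPKM in either library. Since no condition was replicated, there is no test and no p-value here. Each count of members is set beside the share of all models past the same limit. Members are shorter than most models, and models under 1000 nt were past the limit more often than all models in every comparison and direction. Light-harvesting and Rubisco small subunit models, 53 in all, held 7.82% of the RPKM in leaf and at most 0.418% in any other library, and 15 Casparian strip models summed to 50.7 RPKM in root and at most 1.43 RPKM elsewhere. In seed coats, 5 models matched to BANYULS, an enzyme of proanthocyanidin synthesis, summed to 129 RPKM in W55. They summed to 472, 108.7, 5.88 and 0.138 RPKM in the Williams seed coats of 5–6 mg, 25–50 mg, 200–300 mg and dry seed. All 18 seed coat markers together summed to 486 RPKM in W55. In Williams they summed to 558 RPKM at 5–6 mg and 560 RPKM at 25–50 mg. The BANYULS models thus fell between those Williams stages and were higher in W55, where the whole list did neither. None of the 18 reached 1 RPKM in the dry seed coat.

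By summed RPKM, members of the family were most abundant in the 25–50 mg seed coats and in root. Their summed level was 2655 RPKM in seed coats of 5–6 mg, 6075 in those of 25–50 mg seed of W55 and 4092 in those of Williams, 534 in the 200–300 mg seed coat and 248 in the dry seed coat. The axes held 952 RPKM at 200–300 mg and 1693 at 300–400 mg. Cotyledons held 1629, 1201 and 1030 RPKM at 5–6 mg, 200–300 mg and in dry seed, root held 3700 and leaf 1869. As a share of all RPKM the members ranged from 0.0427% in the dry seed coat to 1.64% in the W55 seed coat. With the 95 chromosome 13 models left out, the 5–6 mg seed coat came to 1.31% instead of 0.320%, between the 25–50 mg seed coats of W55 (1.68%) and of Williams (1.25%). Root came to 1.06% instead of 0.978%, so the order of root and the youngest seed coat depended on those models.

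**Figure D1:**
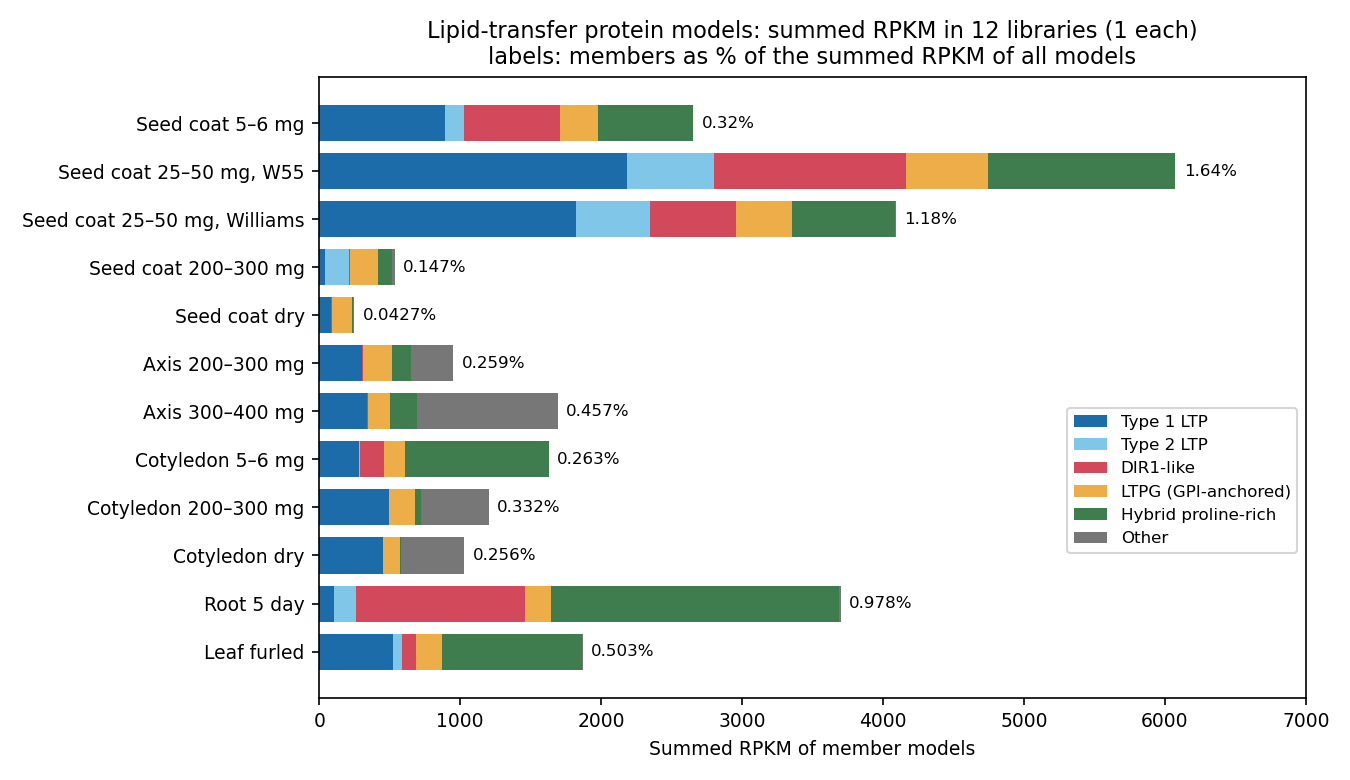
Summed RPKM of the 188 members in each of the 12 libraries, stacked by family. Type 1 and DIR1-like transcripts are the largest parts of the W55 bar at 6075 RPKM, hybrid proline-rich and DIR1-like transcripts those of the root bar at 3700 RPKM, and the dry seed coat bar is the shortest at 248 RPKM.

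The families differed in where they were used. Type 1 transcripts led in seed coats of 25–50 mg, with 2185 RPKM in W55 and 1822 in Williams, 44.5% of the members' RPKM in Williams. Type 2 transcripts stayed in seed coats, root and leaf: they summed to 619 RPKM in W55, to 136, 524 and 172 RPKM in the Williams seed coats of 5–6, 25–50 and 200–300 mg, to 156 RPKM in root and 68.1 RPKM in leaf, and to at most 2.89 RPKM in the axes, the cotyledons and the dry seed coat. DIR1-like transcripts summed to 1360 RPKM in the W55 seed coat, 609 in the Williams one and 1203 in root, but to 10.7 RPKM or less in every desiccating or dry tissue. Hybrid proline-rich transcripts held 62.6% of the members' RPKM in the 5–6 mg cotyledon, 55.2% in root and 53.1% in leaf. The LTPG sum varied least among the larger families, between 122 RPKM in the dry cotyledon and 580 RPKM in the W55 seed coat.

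Of the 188 members, 118 reached 1 RPKM in at least 1 library and 36 reached 100 RPKM, while 55 were above 0 but never at 1 RPKM and 15 were at 0 in all 12 libraries. The silent models included both A9-like members, Glyma.09G144000 and Glyma.16G197100. By family, 25 of 55 LTPG, 33 of 42 hybrid proline-rich, 27 of 40 DIR1-like, 21 of 35 type 1, 7 of 8 type 2 and 5 of 6 other models reached 1 RPKM. Most members were used in few tissues. In 66 of the 118 (55.9%), at least 50% of the sum over the 12 libraries lay in 1 library, against 17.1% of the 41060 models that reached 1 RPKM. Root was the highest library for 41 members (34.7%, against 19.7% of all models), the W55 seed coat for 22 (18.6%, against 12.1%), leaf for 19 (16.1%, against 18.9%) and the 5–6 mg seed coat for 12 (10.2%, against 1.10%). Of these 118, 0 were highest in the dry seed coat, against 2.94% of all models.

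**Figure D2:**
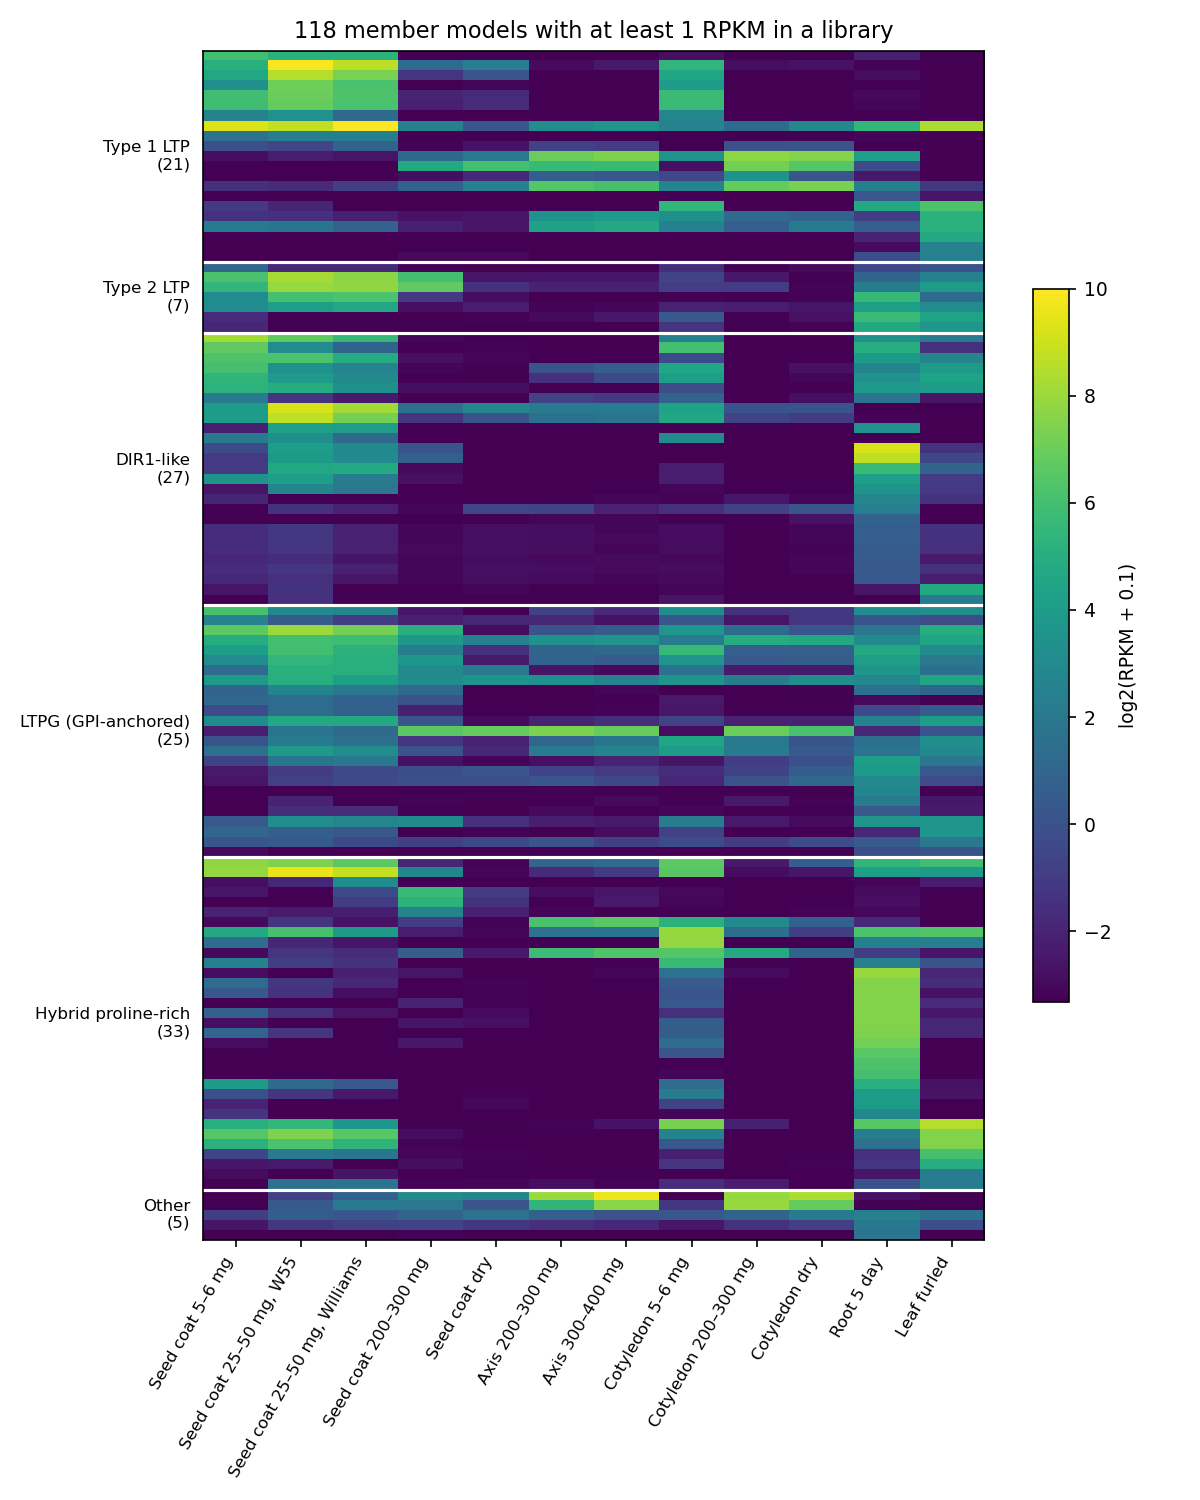
Level of the 118 members that reached 1 RPKM in at least 1 library, as log2(RPKM + 0.1), with models grouped by family and the 12 libraries across. The models that stay high in desiccating and dry tissues include the chromosome 3 type 1 models, Glyma.16G184100, the 2 models without an Arabidopsis match and, in the axes, the hybrid proline-rich Glyma.05G057600 and Glyma.17G140100.

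Among the type 1 proteins, the classical soluble lipid transfer proteins, Glyma.01G132500 reached the highest level of any member. Matched to Arabidopsis LTP1, it had 628 RPKM in seed coats of 5–6 mg, 441 in the W55 and 977 in the Williams 25–50 mg seed coat, 5.67 at 200–300 mg, 1.08 in dry seed coats, 9.21 and 11.6 in the 200–300 mg and 300–400 mg axes, 5.83, 2.52 and 7.11 in the cotyledons of 5–6 mg, 200–300 mg and dry seed, 45.5 in root and 331 in leaf. It alone held 23.6% of the members' RPKM in the 5–6 mg seed coat and 23.9% in the Williams 25–50 mg seed coat. Leaf was its next site after the young seed coats.

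A second set of type 1 models, all closest to AT4G33355, was highest in the 25–50 mg seed coats and was also present in the 5–6 mg cotyledon. Glyma.02G281400 had 35.3 RPKM in the 5–6 mg seed coat, 948 in W55 and 410 in Williams at 25–50 mg, 2.42 and 5.00 in the 200–300 mg and dry seed coats, 43.8 in the 5–6 mg cotyledon and at most 0.0861 in the other 6 libraries. Its neighbour Glyma.02G281500 ran in parallel, with 24.9, 362 and 161 RPKM in those first 3 seed coats and 22.8 RPKM in the 5–6 mg cotyledon, as did Glyma.14G032800 with 10.1, 133, 73.1 and 15.6 RPKM. Glyma.09G055000 and Glyma.09G055100, chosen after their values were seen, had 125 and 115 RPKM in W55 and 77.5 and 71.8 RPKM in Williams. At 5–6 mg these 2 models had 59.2 and 57.8 RPKM in the seed coat and 54.1 and 52.2 RPKM in the cotyledon. Their profiles were nearly equal (largest difference 0.119 log2 units over 4 libraries). Some neighbouring DIR1-like models with low levels also had nearly equal values in most libraries. Reads of such neighbours were allowed to align to up to 25 places, so the split between close copies is uncertain.

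The third type 1 set lay on chromosome 3 and belonged to the embryo late in development. Glyma.03G040400, matched to LTP1, had 123 and 164 RPKM in the 200–300 mg and 300–400 mg axes and 11.4, 215 and 187 RPKM in cotyledons of 5–6 mg, 200–300 mg and dry seed, against at most 4.04 RPKM in any seed coat, 17.9 RPKM in root and 0 in leaf. Glyma.03G040100, likewise matched to LTP1, had 88.6 and 69.4 RPKM in those axes and 6.23, 117 and 158 RPKM in the cotyledons. Glyma.03G040000, matched to LTP2, had 49.8 and 50.0 RPKM in the axes and 0.0539, 143 and 89.6 RPKM in the cotyledons. Its level in the late seed coats was above that of both neighbours, at 65.6 RPKM in dry and 27.1 RPKM in 200–300 mg seed where neither neighbour passed 5.61 RPKM. It was at 0 in all 3 younger seed coats.

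Type 2 proteins are smaller relatives of type 1. The 3 highest models, all closest to AT3G18280, were seed coat transcripts. Glyma.19G002300 had 293 RPKM in W55, with 72.9, 203, 64.2 and 0.0715 RPKM in the Williams seed coats from 5–6 mg to dry seed, and at most 5.69 RPKM elsewhere. Glyma.05G002200 had 242 RPKM in W55, 43.2, 220, 107.5 and 0.289 RPKM in the same Williams series and 16.5 RPKM in leaf, and held 20.1% of the members' RPKM in the 200–300 mg seed coat, the highest there. Glyma.18G294200 shared the peak at 25–50 mg (66.6 RPKM in W55, 75.4 in Williams) but had 0.355 RPKM at 200–300 mg and 49.3 RPKM in root.

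The most abundant DIR1-like models were seed coat or root transcripts. Glyma.20G248700, whose closest match is DIR1 itself, had 16.6 RPKM in the 5–6 mg seed coat, 424 in W55 and 147 in Williams at 25–50 mg, 24.5 in the 5–6 mg cotyledon, 2.78 and 3.35 in the 2 axes and less than 1 RPKM in the other 6 libraries. Glyma.10G297600, closest to AT5G48490, had 15.9 RPKM at 5–6 mg, 578 in W55 and 284 in Williams, 20.9 in the 5–6 mg cotyledon and 0 in root and leaf. Glyma.07G141500 peaked earlier, with 288, 47.4 and 0.0116 RPKM in Williams seed coats of 5–6, 25–50 and 200–300 mg. Glyma.11G120400 was likewise early, at 106.2 RPKM in seed coats and 64.6 RPKM in cotyledons of 5–6 mg seed, 31.4 RPKM in root, and 8.45 and 1.78 RPKM in the W55 and Williams seed coats. Both leading root models are closest to AT3G53980: Glyma.18G190000 had 578 RPKM in root, 17.3 in the W55 and 8.06 in the Williams seed coat and at most 1.01 elsewhere, and Glyma.07G139400 had 416, 15.2 and 8.59 RPKM in those libraries and at most 1.56 elsewhere.

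LTPG proteins are held at the outer face of the plasma membrane. Glyma.15G052200, closest to the xylogen-like AT5G64080, was the seed coat member, with 254 RPKM in W55, 98.5, 149, 33.5 and 0.0335 RPKM in Williams seed coats from 5–6 mg to dry seed and 31.1 RPKM in leaf. Glyma.16G184100, closest to AT2G44300, had the reverse order in time: 3.34 RPKM in W55, 0.118, 2.32, 95.2 and 116 RPKM in that series, 167 and 120 RPKM in the 200–300 mg and 300–400 mg axes, and 0.0368, 131 and 73.4 RPKM in cotyledons of 5–6 mg, 200–300 mg and dry seed. It held 46.7% of the members' RPKM in the dry seed coat. Glyma.11G256100 was an early seed coat transcript (68.9 RPKM at 5–6 mg, with 7.89 RPKM in W55 and 6.56 RPKM in Williams at 25–50 mg and 9.66 RPKM in leaf). A broad profile was that of Glyma.13G075700, closest to AT3G43720, which lay between 4.72 and 33.6 RPKM in all 12 libraries.

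Hybrid proline-rich proteins showed the widest range of sites. Glyma.20G062700, closest to AT3G22142, was the leading seed coat model with 236 RPKM at 5–6 mg, 782 in W55 and 447 in Williams at 25–50 mg, 92.8 in the 5–6 mg cotyledon, 18.0 in root, 15.3 in leaf and 6.90 or less in the other libraries. Glyma.17G111100 and Glyma.13G160400, both closest to AT2G10940, were highest in the 5–6 mg cotyledon (238 RPKM) and in leaf (363 RPKM). Glyma.17G111100 led all members in the young cotyledon with 14.6% of their RPKM, and Glyma.13G160400 led in leaf with 19.4%. Glyma.17G139500 was nearly a young cotyledon transcript, with 232 RPKM there and at most 5.74 RPKM elsewhere. A pair on chromosome 15, Glyma.15G119700 and Glyma.15G119800, peaked in the 200–300 mg seed coat at 50.0 and 39.4 RPKM and was at most 0.689 RPKM in each of the other 11 libraries.

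The 2 models with PF00234 and no Arabidopsis match were embryo transcripts of desiccating and dry seed. Glyma.12G213600 had 256 RPKM in the 200–300 mg and 801 RPKM in the 300–400 mg axis, 0, 236 and 329 RPKM in cotyledons of 5–6 mg, 200–300 mg and dry seed, 6.82 and 8.58 RPKM in the dry and 200–300 mg seed coats, and at most 1.68 RPKM elsewhere. It was the highest member in both axes and in the dry cotyledon, with 26.9%, 47.3% and 32.0% of the members' RPKM. Glyma.13G288100 had 42.0 and 197 RPKM in the axes and 0.328, 244 and 114 RPKM in the cotyledons, and led in the 200–300 mg cotyledon with 20.3%.

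Between the 25–50 mg seed coats of W55 and Williams, few members were past the 4-fold limit, but most members lay higher in W55. Of 62 members compared, 3 were higher in W55 (4.84%, against 0.205% of all models) and 1 was lower (1.61%, against 0.49%). Of the 62, 49 lay above and 13 below the median of all models, with a median of 0.68 log2 units. Glyma.17G111100 had 70.3 RPKM in W55, against 15.4 RPKM in Williams, a ratio of 4.58 (95% counting interval 4.09 to 5.14). The DIR1-like Glyma.11G120400 had 8.45 RPKM in W55, against 1.78 RPKM in Williams (ratio 4.75, 3.17 to 7.38), and the type 1 model Glyma.18G113600 had 10.6 RPKM in W55, against 2.27 RPKM in Williams (ratio 4.69, 3.05 to 7.50). The 1 lower member was the hybrid proline-rich Glyma.15G199600, at 0.191 RPKM in W55 and 8.97 RPKM in Williams, which was at most 0.103 RPKM in the other 10 libraries. These intervals cover counting error only, and the genotype and the library cannot be told apart.

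At a 2-fold limit, chosen after the data were seen, 14 of the 62 members (22.6%) were higher in W55, against 2.59% of all models, and 5 (8.06%) were lower, against 3.59%. Among the abundant seed coat transcripts, Glyma.02G281400 had 948 RPKM in W55 and 410 RPKM in Williams, a ratio of 2.31 (2.24 to 2.39), Glyma.20G248700 had 424 RPKM in W55 and 147 RPKM in Williams, a ratio of 2.89 (2.74 to 3.05), and Glyma.10G297600 had 578 RPKM in W55 and 284 RPKM in Williams, a ratio of 2.03. The most abundant member went the other way: Glyma.01G132500 had 441 RPKM in W55 and 977 RPKM in Williams, a centred difference of -1.18. The DIR1-like family had the highest median of the 5 named families compared, 1.06 over 15 models, and type 2 the lowest, -0.05 over 4 models. Members are short, with a median model length of 891.5 nt against 1696 nt for all models in this comparison, and short models as a whole lay higher in W55, with a median of 0.21 for the 6030 models under 1000 nt. Within that length, 12 of 41 members (29.3%) were 2-fold higher, against 8.76% of the models, and 4 (9.76%) were 2-fold lower, against 7.21%, and the members' median was 0.65. With differences centred on the short models in place of all models, 0 members were past 4-fold higher, against 0.125% of all models. The 2 models without an Arabidopsis match lay lower in W55. Glyma.12G213600 had 0.503 RPKM in W55 and 1.68 RPKM in Williams, and Glyma.13G288100 had 1.24 RPKM and 4.28 RPKM. Of the embryo markers, 16 seed storage globulin models summed to 16.3 RPKM in W55 and 42.2 RPKM in Williams. The 13 oleosin models went the other way, with 54.5 RPKM in W55 and 50.2 RPKM in Williams. The part of storage transcripts in the lower levels of the 2 models was not tested.

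**Figure D3:**
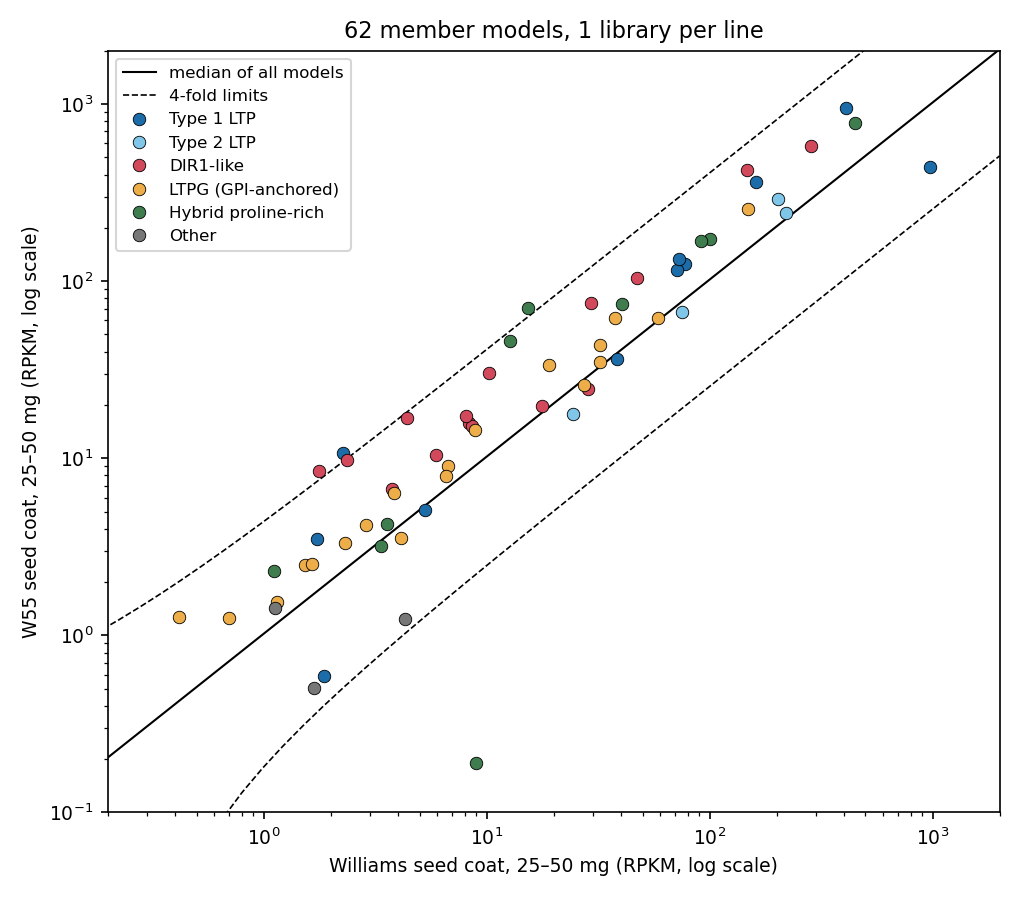
RPKM of each member in the 25–50 mg seed coat of W55 against that of Williams, both axes on a log10 scale, coloured by family, with a solid line at the median of all models and dashed lines at the 4-fold limits. Most members lie above the solid line, Glyma.01G132500 lies below it, and Glyma.15G199600 stands alone far below at 0.191 RPKM in W55 and 8.97 RPKM in Williams.

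In seed of 5–6 mg, type 2, DIR1-like and LTPG transcripts leaned to the seed coat and hybrid proline-rich ones to the cotyledon. Of 69 members compared, 29 were higher in the seed coat (42.0%, against 11.8% of all models) and 15 were lower (21.7%, against 5.25%). The median of all models in the seed coat relative to the cotyledon was -1.01 log2 units. With no centring the counts were 23 higher, against 7.47% of all models, and 19 lower, against 16.9%. The type 2 family was higher in 5 of 6 models and lower in none, the DIR1-like family in 7 of 11 and none, and LTPG in 8 of 16 and 1, whereas hybrid proline-rich models were higher in 6 and lower in 10 of 21. Glyma.18G214600, matched to LTP3, had 61.4 RPKM in the seed coat and 0.0455 RPKM in the cotyledon, a centred difference of 9.74. Glyma.19G002300 followed at 72.9 RPKM in the seed coat, against 0.558 RPKM in the cotyledon, with 7.81, and Glyma.01G132500 at 628 RPKM, against 5.83 RPKM, with 7.74. The most abundant DIR1-like model of that seed coat, Glyma.07G141500, had 288 RPKM there and 5.40 RPKM in the cotyledon, with 6.72. The cotyledon side was led by hybrid proline-rich models: Glyma.17G140100 had 0.0254 RPKM in the seed coat and 88.8 RPKM in the cotyledon (-8.46), Glyma.05G057600 had 0.0207 RPKM and 37.1 RPKM (-7.26), and Glyma.17G139500 had 2.68 RPKM and 232 RPKM (-5.37). Among type 1 models Glyma.18G210900 was on that side, with 0.369 RPKM in the seed coat and 45.2 RPKM in the cotyledon (-5.58). Both libraries came from the same kind of sequencer and read length.

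The Williams seed coat exchanged members between 5–6 mg and 25–50 mg. Of 70 members compared, 10 were higher at 25–50 mg (14.3%, against 4.14% of all models) and 27 were lower (38.6%, against 5.07%). Part of this excess goes with length, as 8.80% of the models under 1000 nt were higher and 16.0% lower. This split depends on the centring, since the median of all models was 1.62 log2 units higher at 25–50 mg. With no centring, 21 of 70 members were higher, against 34.8% of all models, and 15 were lower, against 1.22%. The members' median was -0.93 with centring and is above 0 without it. The DIR1-like family held both directions, with 5 of 16 models higher and 9 lower. Glyma.11G120400 had 1.78 RPKM at 25–50 mg, against 106.2 RPKM at 5–6 mg (-7.44), and Glyma.07G141500 had 47.4 RPKM, against 288 RPKM (-4.22), while Glyma.10G297600 had 284 RPKM, against 15.9 RPKM (2.53), and Glyma.03G073500 had 28.5 RPKM, against 0.376 RPKM (4.29). The LTPG model Glyma.11G256100 had 6.56 RPKM at 25–50 mg and 68.9 RPKM at 5–6 mg (-4.99). Sequencer and read length differed between these libraries and cannot be told apart from the stage.

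At desiccation most seed coat members fell. Of 67 members compared between the 200–300 mg and the 25–50 mg Williams seed coat, 46 were lower (68.7%, against 17.6% of all models) and 8 were higher (11.9%, against 10.8%), with a median of -4.34. All models shifted by -0.26. All 15 DIR1-like models compared were lower, with a median of -5.94, as were 11 of 14 type 1 and 10 of 14 hybrid proline-rich models. Glyma.01G132500 had 5.67 RPKM at 200–300 mg and 977 RPKM at 25–50 mg (-7.14), Glyma.20G248700 had 0.314 RPKM and 147 RPKM (-8.21), and Glyma.14G115500, a hybrid proline-rich model closest to AT2G45180, had 0.0335 RPKM and 91.9 RPKM (-9.16). Glyma.14G032800 had no read at 200–300 mg and 73.1 RPKM at 25–50 mg, at least 1688-fold lower when 3 reads are allowed for. The 2 leading type 2 models stayed within the limit, at 64.2 RPKM against 203 RPKM for Glyma.19G002300 (-1.40) and 107.5 RPKM against 220 RPKM for Glyma.05G002200. Among the models that rose, Glyma.03G040000 had 27.1 RPKM at 200–300 mg and no read at 25–50 mg, at least 109.1-fold higher, Glyma.15G119800 had 39.4 RPKM against 0.419 RPKM (6.51), Glyma.15G119700 had 50.0 RPKM against 0.689 RPKM (6.25), and Glyma.16G184100 had 95.2 RPKM against 2.32 RPKM (5.56). In bulk tissue, fewer cells of a type and less RNA per cell cannot be told apart, and sequencer and read length again differed between the stages.

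In the dry seed coat, 15 of 30 members compared were lower than at 200–300 mg (50%, against 15.9% of all models) and 4 were higher (13.3%, against 3.56%). The median of all models was -0.97. With no centring 16 members were lower, against 26.5% of all models, and 0 higher, against 1.15%. Both type 2 models compared fell, Glyma.19G002300 with 0.0715 RPKM in dry seed and 64.2 RPKM at 200–300 mg (-7.58) and Glyma.05G002200 with 0.289 RPKM and 107.5 RPKM (-7.14), as were all 5 hybrid proline-rich models and 6 of 11 LTPG models, including Glyma.15G052200 with 0.0335 RPKM and 33.5 RPKM (-7.00). The type 1 model Glyma.03G040000 had 65.6 RPKM in the dry and 27.1 RPKM in the 200–300 mg seed coat, a centred difference of 2.25. The 13 oleosin models summed to 484 RPKM in the dry and 315 RPKM in the 200–300 mg seed coat, and to 1.65, 54.5 and 50.2 RPKM in the seed coats of 5–6 mg, W55 and Williams. In both late seed coats 12 of the 13 oleosins reached 1 RPKM and none was at 0, and the 16 globulins summed to 138 RPKM in the dry and 469 RPKM in the 200–300 mg one. The part of embryo transcripts in the levels of Glyma.03G040000 and Glyma.16G184100 in late seed coats was not tested.

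**Figure D4:**
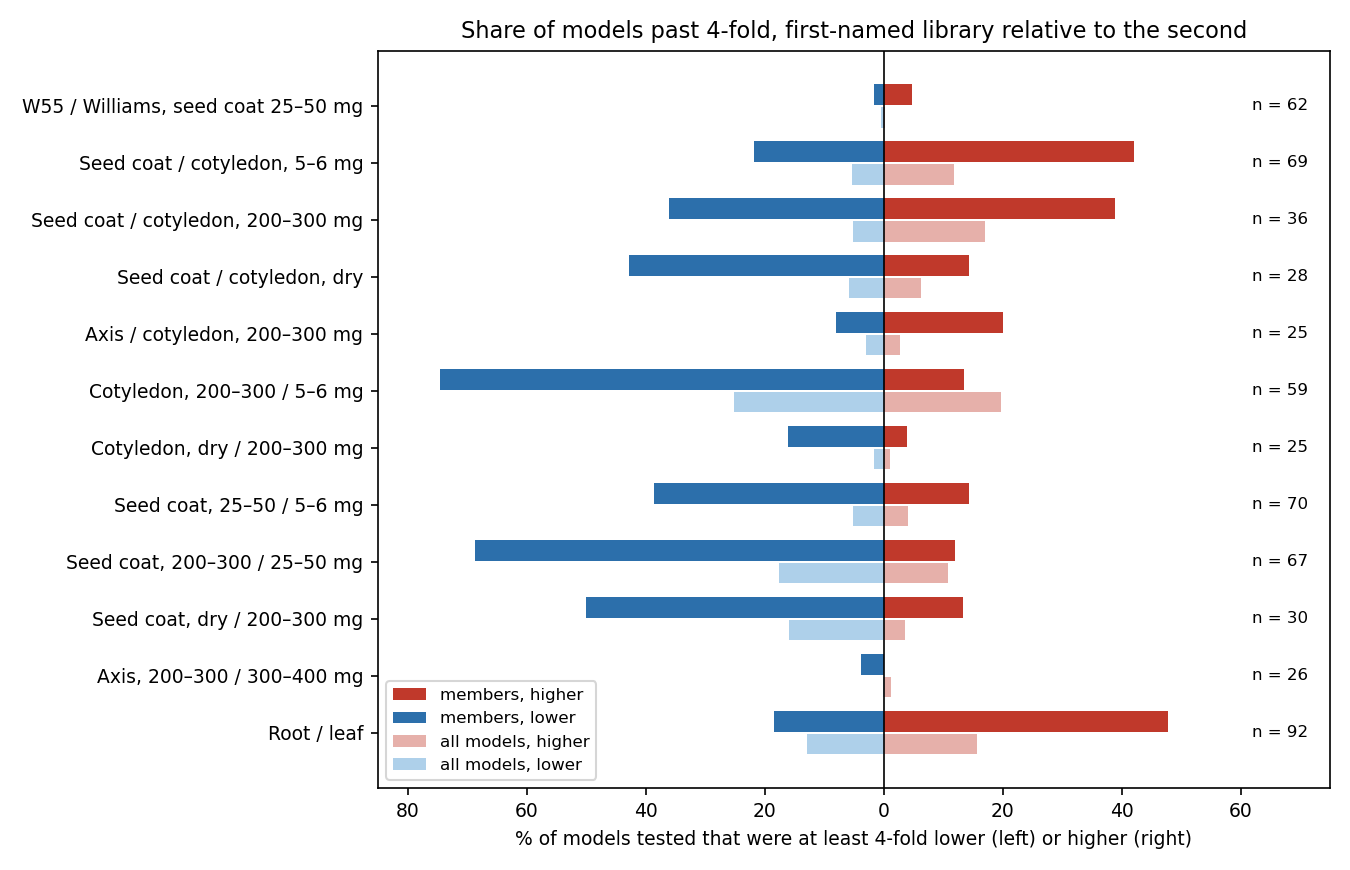
Share of the members compared (dark bars) and of all models compared (pale bars) that were past 4-fold higher (to the right) or lower (to the left) in each of the 12 comparisons, in percent. Members exceed the background most for lower levels in the 200–300 mg cotyledon against 5–6 mg (74.6% against 25.2%) and in the 200–300 mg seed coat against 25–50 mg (68.7% against 17.6%).

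In desiccating seed, the type 2 models compared lay on the seed coat side and most type 1 models on the cotyledon side. At 200–300 mg, 14 of 36 members were higher in the seed coat (38.9%, against 17.1% of all models) and 13 were lower (36.1%, against 5.07%). All models shifted by 0.33. The type 2 pair stood on the seed coat side, Glyma.19G002300 with 64.2 RPKM in the seed coat and 0.0791 RPKM in the cotyledon (8.16) and Glyma.05G002200 with 107.5 RPKM and 0.411 RPKM (7.39), together with Glyma.15G052200 at 33.5 RPKM against 2.55 RPKM (3.33). Glyma.15G119700 had 50.0 RPKM in the seed coat and no read in the cotyledon, at least 473-fold higher. Hybrid proline-rich models were divided, with 4 of 7 higher in the seed coat and 3 lower, and LTPG models were higher in 5 of 13 and lower in 2. Type 1 models were on the cotyledon side in 6 of 8 and on the seed coat side in 1. Glyma.03G040400 had 2.05 RPKM in the seed coat and 215 RPKM in the cotyledon (-6.98), and Glyma.03G040100 had 1.69 RPKM and 117 RPKM (-6.37). Outside type 1, Glyma.13G288100, without an Arabidopsis match, had 3.95 RPKM in the seed coat and 244 RPKM in the cotyledon (-6.25). Glyma.16G184100 was close in the 2 tissues, at 95.2 RPKM in the seed coat and 131 RPKM in the cotyledon (-0.79). Oleosins summed to 315 RPKM in this seed coat and 2511 RPKM in the cotyledon.

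In dry seed, 4 of 28 members were higher in the seed coat than in the cotyledon (14.3%, against 6.23% of all models) and 12 were lower (42.9%, against 5.8%), with all models shifted by -0.55. Among models under 1000 nt, 12.5% were higher, near the members' share, and 7.02% were lower. The largest falls were again in embryo models, with Glyma.13G288100 at 1.03 RPKM in the seed coat and 114 RPKM in the cotyledon (-6.11), Glyma.12G213600 at 6.82 RPKM and 329 RPKM (-5.02) and Glyma.03G040400 at 4.04 RPKM and 187 RPKM (-4.95). The 12 also held models that were higher in the seed coat of younger seed, such as Glyma.01G132500, at 1.08 RPKM in the dry seed coat and 7.11 RPKM in the dry cotyledon. With a pseudocount of 1 RPKM, 3 were higher, against 3.28% of all models, and 4 lower, against 1.61%. By Pfam domain alone, 1 of 23 was higher, against 6.23%. Glyma.16G184100 and Glyma.03G040000 were within the limit: Glyma.16G184100 had 116 RPKM in the seed coat and 73.4 RPKM in the cotyledon, a centred difference of 1.20, and Glyma.03G040000 had 65.6 RPKM and 89.6 RPKM, while oleosins summed to 484 RPKM in the dry seed coat and 2369 RPKM in the dry cotyledon.

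The cotyledon changed its set of members between 5–6 mg and 200–300 mg. Of 59 members compared, 44 were lower at 200–300 mg (74.6%, against 25.2% of all models) and 8 were higher (13.6%, against 19.8%), with a median of -4.09. All 8 DIR1-like and 19 of 20 hybrid proline-rich models were lower, and 8 of 14 type 1 models were lower while 4 were higher. Glyma.17G139500 had no read at 200–300 mg and 232 RPKM at 5–6 mg, at least 2271-fold lower. Glyma.20G062700 had 0.034 RPKM at 200–300 mg and 92.8 RPKM at 5–6 mg (-9.47), and Glyma.13G160400 had 0.122 RPKM and 152 RPKM (-9.45). In the other direction Glyma.12G213600 had 236 RPKM at 200–300 mg and no read at 5–6 mg, at least 10773-fold higher, Glyma.16G184100 had 131 RPKM against 0.0368 RPKM (9.87), Glyma.03G040000 had 143 RPKM against 0.0539 RPKM (9.83) and Glyma.13G288100 had 244 RPKM against 0.328 RPKM (9.12). Read length differed between the stages. From there to dry seed little moved: of 25 members, 1 was higher in the dry cotyledon (4%, against 1.06%) and 4 were lower (16%, against 1.56%). Of the abundant members, Glyma.17G140100 was lower, at 1.85 RPKM in dry seed and 27.9 RPKM at 200–300 mg (-3.78). Glyma.01G130200, matched to LTP2, had 1.05 RPKM in dry seed and 11.2 RPKM at 200–300 mg and was the only type 1 model past the limit.

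Axis and cotyledon of 200–300 mg seed differed in few members. Of 25 members, 5 were higher in the axis (20%, against 2.73% of all models) and 2 were lower (8%, against 2.94%), with a median of 0.06. The hybrid proline-rich Glyma.05G057600 was the abundant axis transcript, at 72.3 RPKM in the axis and 7.94 RPKM in the cotyledon (3.08), and Glyma.01G132600, matched to LTP1, had 19.7 RPKM in the axis and 1.48 RPKM in the cotyledon. Glyma.13G288100 was lower in the axis, at 42.0 RPKM against 244 RPKM (-2.63). The axes were ordered as the supplement of the study lists its stages, with the lighter seed later, and this order was not checked against the data. Of 26 members, 0 were higher in the 200–300 mg axis than in the 300–400 mg one (1.17% of all models) and 1 was lower (3.85%, against 0.116%). That member was Glyma.13G288100, with 42.0 RPKM at 200–300 mg and 197 RPKM at 300–400 mg (-2.21), and Glyma.12G213600 moved the same way within the limit, with 256 RPKM and 801 RPKM (-1.62). Oleosins summed to 1757 RPKM in the 200–300 mg and 1719 RPKM in the 300–400 mg axis. The 16 globulin models summed to 484 RPKM in the 200–300 mg and 839 RPKM in the 300–400 mg axis.

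Root and leaf divided the members by family. Of 92 compared, 44 were higher in root (47.8%, against 15.7% of all models) and 17 were lower (18.5%, against 12.8%), with a median of 1.85. Hybrid proline-rich models were higher in root in 16 of 27 and lower in 7, and DIR1-like models higher in 14 of 24 and lower in 2, whereas type 1 models were higher in 3 of 10 and lower in 6. Glyma.18G190000 had 578 RPKM in root and 0.291 RPKM in leaf (10.46), Glyma.05G057500, closest to AT4G12500, had 185 RPKM and 0.0558 RPKM (10.15), and Glyma.07G139400 had 416 RPKM and 0.65 RPKM (9.05). Glyma.17G140200 had 145 RPKM in root and no read in leaf, at least 721-fold higher. The type 2 model Glyma.18G294200 was higher in root, at 49.3 RPKM against 2.38 RPKM (4.25). Other members were lower in root and high in leaf: Glyma.04G065600, closest to AT2G45180, had 0.261 RPKM in root and 70.6 RPKM in leaf (-7.68), the DIR1-like Glyma.14G018900 had 0.064 RPKM and 27.1 RPKM (-7.44), and Glyma.09G278000, matched to LTP1, had 0.139 RPKM and 26.1 RPKM (-6.84). Glyma.03G035600 and Glyma.01G132600, both matched to LTP1, had 0.437 and 1.49 RPKM in root and 36.7 and 36.02 RPKM in leaf. The sequencer differed between these libraries, and read length did not.

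Many members sit in clusters of neighbouring models. Of 182 placed on chromosomes, 62 lay in 11 runs of at least 3 models numbered close together. The most active were 9 hybrid proline-rich models on chromosome 5 and 9 on chromosome 17. These 18 summed to 1659 RPKM in root, 44.8% of the members' RPKM there, and to 7.38 RPKM in leaf, 0.395%, and 13 of them were highest in root. The 9 that reached 90 RPKM in root were otherwise nearly silent, as with Glyma.05G057800, which had 245 RPKM in root and at most 3.02 RPKM in any other library. Within each run, however, single models took other tissues. Glyma.05G057600 and Glyma.17G140100, closest to AT3G22142 and AT1G62500, had 0.189 and 0.406 RPKM in root, 72.3 and 56.4 RPKM in the 200–300 mg axis, 97.7 and 84.6 RPKM in the 300–400 mg axis, and 37.1 and 88.8 RPKM in the 5–6 mg cotyledon. Glyma.17G139500 and Glyma.05G057000 were models of the young cotyledon, at 232 and 50.2 RPKM there and 5.74 and 5.56 RPKM in root. The run on chromosome 15 was divided too, between root for Glyma.15G119100 (68.2 RPKM in root, at most 0.0148 elsewhere, chosen after its values were seen) and the 200–300 mg seed coat for Glyma.15G119700 and Glyma.15G119800. The type 1 run of 4 models on chromosome 3 summed to 435 RPKM in the dry and 476 RPKM in the 200–300 mg cotyledon, 42.2% and 39.6% of the members' RPKM, and to 0.515 RPKM or less in each of the 3 younger seed coats. Reads shared between neighbours leave the split within a run uncertain.

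**Figure D5:**
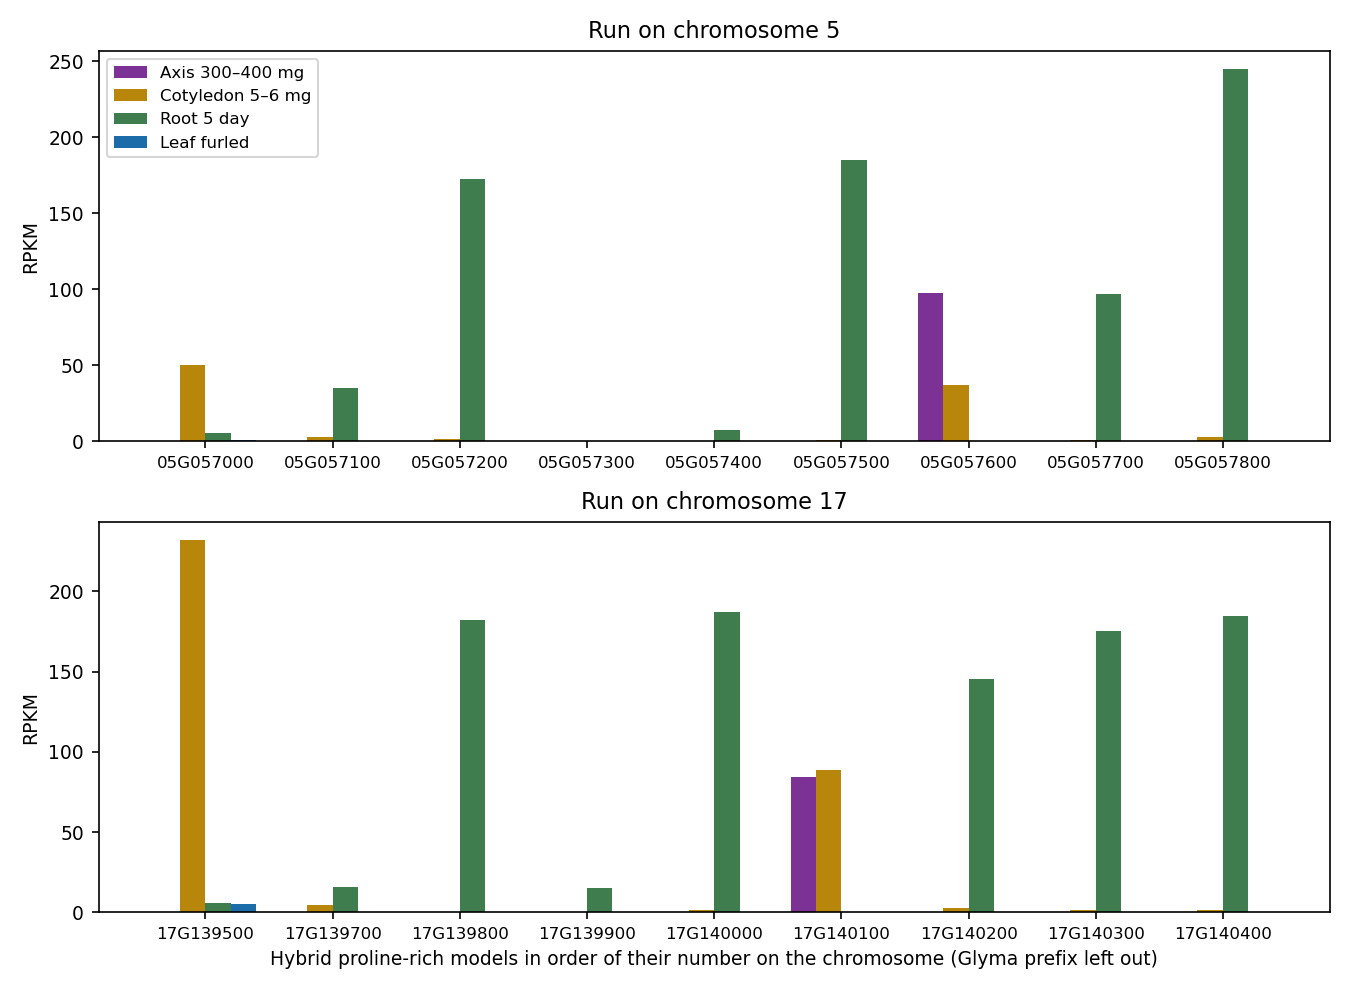
RPKM of the 18 hybrid proline-rich models of the chromosome 5 and chromosome 17 runs in the 300–400 mg axis, the 5–6 mg cotyledon, root and leaf, in the order of their numbers on each chromosome. Root takes 9 of the models at 90 RPKM or more, while Glyma.05G057600 and Glyma.17G140100 are high in the axis and Glyma.17G139500 in the 5–6 mg cotyledon.

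The surface polymers that lipid transfer proteins are thought to serve were followed through 118 models matched to Arabidopsis genes of cutin, suberin and wax synthesis, export and regulation. In the 200–300 mg seed coat against the 25–50 mg Williams one, 37 of 48 were lower (17.6% of all models) and 5 higher (10.8%), with a median of -3.61 where the members had -4.34. CYP86B1, a fatty acid hydroxylase of suberin, was matched by Glyma.09G282700 with 0.00403 RPKM at 200–300 mg and 63.7 RPKM at 25–50 mg, and DCR, a cutin acyltransferase, by Glyma.16G180500 with 0.26 RPKM and 40.2 RPKM. In root against leaf the list went the other way from the members: 4 of 73 were higher in root (15.7% of all models) and 47 were lower (12.8%), with a median of -2.72, as in Glyma.19G051100, matched to the cutin synthase CUS2, at 0.14 RPKM in root and 76.9 RPKM in leaf. Between W55 and Williams 0 of 43 were past the limit in either direction (0.205% of all models higher and 0.49% lower), with a median of -0.29 where the members had 0.68. In 5–6 mg seed 10 of 26 were higher in the seed coat than in the cotyledon (11.8% of all models) and 1 lower (5.25%), and in the Williams seed coat 7 of 44 were higher at 25–50 mg than at 5–6 mg (4.14% of all models) and 1 lower (5.07%), where the members had 10 higher and 27 lower. Higher and lower models of the list numbered 4 and 3 of 21 in the 200–300 mg seed coat against the cotyledon (17.1% and 5.07% of all models), 2 and 3 of 10 in the dry seed coat against the dry cotyledon (6.23% and 5.8%), and 1 and 9 of 18 in the dry against the 200–300 mg seed coat (3.56% and 15.9%). In the embryo they numbered 5 and 11 of 26 in the 200–300 mg against the 5–6 mg cotyledon (19.8% and 25.2%), 0 and 1 of 14 in the dry against the 200–300 mg cotyledon (1.06% and 1.56%), 0 and 2 of 16 in the axis against the cotyledon (2.73% and 2.94%), and 0 and 0 of 12 in the 200–300 mg against the 300–400 mg axis (1.17% and 0.116%).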

How the data were processed

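The authors aligned the reads with Bowtie 1 (exact version not given in the sources used here) to the transcripts of all Glyma models of the Wm82.a2 annotation, splice variants included, with 3 mismatches permitted and each read kept at up to 25 places. The deposited file holds the authors' RPKM values of the first splice variant, with Pfam domains and closest Arabidopsis matches. The kit is not stated to mark strand.

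Each of the 12 groups is 1 library, assigned from the labels. The members, families and lists were chosen with earlier results of these data known. Families follow the closest Arabidopsis locus, as does the list of 118 surface polymer models. From the RPKM values and the model lengths listed by the study for 48 models, the smallest library totals that make alignments whole (tolerance 0.001) were found, and from these the lengths of 54020 models. The length was found again for 47 of the 48. RPKM ratios carry exact Clopper-Pearson 95% intervals from these alignments, which cover counting error only, and a ratio to 0 is a bound at 3 alignments. Differences were log2(RPKM + 0.1), centred on the median of every model that reached 1 RPKM in either of the libraries compared, with a limit of 4-fold. Runs are members on 1 chromosome whose model numbers are at most 500 apart.

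The rule for named models took the 3 highest members of each library and of each family, and for each comparison the 3 largest rises and falls past 4-fold with at least 5 RPKM in either library. It named 51 models, from which the text gives a selection. Members outside it (Glyma.05G119100, Glyma.09G055000, Glyma.09G055100, Glyma.13G005500 and Glyma.15G119100) were chosen after their values were seen, as were the models named from the surface polymer list. Alternatives were a pseudocount of 1 RPKM, no minimum, no centring and membership by Pfam domain alone, and, added after seeing the data, centring on models under 1000 nt and a limit of 2-fold for W55. The computation was tested on simulated data. Python 3.11.15, NumPy 2.4.6, pandas 2.3.3, SciPy 1.17.1 and Matplotlib 3.10.9 were used. No sequences are shown, since the gene table used here (Glycine_max_v4.0) carries no Glyma identifiers.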

Additional observations from a re-analysis of the deposited data

Results flagged for a closer look

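The contrast of seed coat and cotyledon turned round between stages for 4 members, past 4-fold in both. None of these differences between stages was tested, since each tissue and stage is 1 library. Glyma.01G132500 was lower in the dry seed coat than in the dry cotyledon, at 1.08 RPKM against 7.11 RPKM (-2.06), and higher in the 5–6 mg seed coat (7.74). The LTPG model Glyma.15G052200 was lower in the dry seed coat, at 0.0335 RPKM against 1.04 RPKM (-2.55), and higher in the seed coat at 5–6 mg (3.89) and at 200–300 mg (3.33). The hybrid proline-rich Glyma.13G005500 had 0.0103 RPKM in the dry seed coat and 1.51 RPKM in the dry cotyledon (-3.32), and 223 RPKM in the seed coat against 100 RPKM in the cotyledon at 5–6 mg (2.17). Its 5–6 mg difference rests on the centring, since the ratio of RPKM values is under 4-fold. The LTPG model Glyma.05G119100 had 0.0977 RPKM in the dry seed coat and 1.44 RPKM in the dry cotyledon (-2.42), and 13.2 RPKM against 1.24 RPKM at 200–300 mg (2.98). Of the members compared at both stages, 3 of 20 turned round between 5–6 mg and dry seed and 2 of 24 between 200–300 mg and dry seed, and 0 of 25 between 5–6 mg and 200–300 mg. The dry seed coat values of Glyma.13G005500, Glyma.15G052200 and Glyma.05G119100 rest on 2, 5 and 10 alignments. With a pseudocount of 1 RPKM, 4 members were lower in the dry seed coat than in the dry cotyledon. The 4 models named here were not among them.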

How the results depend on the processing

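The counts of members past 4-fold, 24 in all, stayed within 1.5 times their value in 14 with a pseudocount of 1 RPKM, 20 with no minimum, 21 with no centring and 18 with membership by Pfam domain alone. Brackets give the count as reported, then the share of all models past the limit under the alternative. With a pseudocount of 1 RPKM, W55 had 1 higher (3, 0.016%) and the 5–6 mg seed coat against cotyledon 9 lower (15, 1.78%). Dry seed coat against cotyledon had 4 lower (12, 1.61%) and axis against cotyledon 2 higher (5, 0.643%). The 200–300 mg against 5–6 mg cotyledon had 29 lower (44, 13.2%). Dry against 200–300 mg cotyledon had 0 higher (1, 0.208%) and 2 lower (4, 0.362%). The 25–50 mg against 5–6 mg seed coat had 6 higher (10, 1.33%). The dry against 200–300 mg seed coat had 1 higher (4, 1.62%) and 8 lower (15, 4.73%). With no minimum, W55 had 9 higher (3, 0.542%) and 3 lower (1, 0.759%). The dry seed coat against cotyledon then had 8 higher (4, 3.53%) and the 25–50 mg against 5–6 mg seed coat 46 lower (27, 5.37%). With no centring, that seed coat comparison had 21 higher (10, 34.8%) and 15 lower (27, 1.22%). The dry against 200–300 mg seed coat then had 0 higher (4, 1.15%). Membership by Pfam domain alone leaves the shares of all models as reported, so brackets there give the count only. By Pfam domain alone, W55 had 0 lower (1), the 200–300 mg seed coat against cotyledon 8 higher (14), dry seed coat against cotyledon 1 higher (4), dry against 200–300 mg cotyledon 2 lower (4), the 25–50 mg against 5–6 mg seed coat 6 higher (10) and the 200–300 mg against 25–50 mg seed coat 4 higher (8). Centred on models under 1000 nt, W55 had 0 higher (3, 0.125%). At 2-fold it had 14 higher, against 2.59% of all models, and 5 lower, against 3.59%. A larger pseudocount and no minimum act on low models by construction, and the cause of the other changes was not tested. No paired analysis was possible because each group is 1 library, and for the same reason no library could be left out. Low models in leaf and in the 25–50 mg seed coats, with 14.7 M to 23.9 M alignments, carry the widest counting error.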
